A study of Mus musculus with 26 samples.

Results

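Atf4 and 9 genes known as targets of the ATF4 transcription factor (Ddit3, Trib3, Asns, Chac1, Psat1, Phgdh, Ppp1r15a, Sesn2 and Nupr1) were followed through all libraries of choroid plexus (ChP) of the 4th ventricle. They were taken by their symbols, as a list of known targets whose rule names no measured value, and make up 10 of the 55416 genes in the count table. The table holds them in 11 rows, because Ddit3 is listed under a second Ensembl identifier that took between 0 and 8 counts per library and was left aside. The question was whether this arm of the stress response moved together with the chaperones of the endoplasmic reticulum (ER).

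The Ctrl group held 12 adult male C57Bl6J mice after sham surgery, and the SCNx group 12 such mice after an electrolytic lesion of the suprachiasmatic nuclei (SCN), the central circadian clock. Both groups were killed in constant darkness, 1 mouse of each group every 4 h from circadian time CT0 to CT44, and the tissue was dissected with pincers. The KO group held 2 adult male FoxJ1-ERT2-Cre+/-; Bmal1fl/fl mice fed tamoxifen, in which the Foxj1 promoter drives the recombinase in epithelial cells with motile cilia. The KO mice lived under a light-dark cycle, and 1 was killed 7 h after lights-on (ZT7) and 1 in the night (ZT18). Their tissue was laser-captured from frozen brain and sequenced with another library kit. The paper gives them a higher age than the Ctrl and SCNx mice, and their RNA a lower average integrity. Genotype and these conditions cannot be told apart. Each library is 1 mouse and is named by its group and time, as in Ctrl CT4. A p-value for Ctrl or SCNx therefore rests on the spread of single mice. In the fits this is the spread around a group mean, a daily curve or a line. It was estimated over both groups together, except in the separate fits, so a Ctrl p-value also rests on the SCNx mice. The SE of an amplitude uses the mice of its own group only.

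The integrated stress response begins with kinases that sense unfolded ER proteins, missing amino acids, viral RNA or heme shortage and phosphorylate the translation factor eIF2α. General translation then slows while Atf4 mRNA is translated more, and ATF4 switches on genes of amino acid synthesis, redox balance, feedback and cell death. ER chaperones such as BiP belong mainly to the ATF6 and XBP1 arms of the unfolded protein response, which share the ER trigger with the kinase PERK. Control of Atf4 lies largely in translation, which RNA levels do not show.

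Promoters of all 10 genes were found in RefSeq sequences (build GRCm38.p6), taken as 250 bases before to 50 after the start of the gene, on both strands. Composite sites read by C/EBP and ATF factors, TGATGNAA, stood in 4 of the 10 members, in 0 of the 13 ER chaperones with a sequence and in 4.51% of 27025 genes. The ER stress element, CCAAT and CCACG separated by 9 bases, stood in 0 of 10 members, in 7 of 13 chaperones and in 0.137% of genes. The windows below show both motifs, since they are what the sequences of the compared groups do not share. Each runs 5′ to 3′ on the strand on which the motif reads forward, and capitals mark the motif. In the genes named, the motif lay 193 bases before the start of Chac1 (chr2:119351038-119351067, minus strand printed), 14 bases after that of Trib3 (chr2:152344028-152344057, plus strand), 23 before that of Asns (chr6:7693214-7693243, minus strand), 110 before that of Nupr1 (chr7:126625562-126625591, plus strand), 65 before that of Hspa5 (chr2:34772020-34772048, plus strand) and 98 before that of Pdia6 (chr12:17266486-17266514, plus strand). Hspa5, which codes for BiP, was named because it is the best known of the chaperones, with its values already seen.
Chac1: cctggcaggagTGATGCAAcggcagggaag
Trib3: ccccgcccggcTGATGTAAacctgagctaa
Asns: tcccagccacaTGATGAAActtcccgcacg
Nupr1: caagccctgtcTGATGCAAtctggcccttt
Hspa5: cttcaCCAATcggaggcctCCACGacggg
Pdia6: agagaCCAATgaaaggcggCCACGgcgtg

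The E-box CACGTG, the motif of the BMAL1 and CLOCK pair, was present in 1 member, Nupr1, 225 bases before its start, in 2 of 13 chaperones and in 8.09% of genes. An ER stress element can overlap an E-box, because its CCACG holds the first letters of CACGTG. These matches are strings in a short window and say nothing of binding.

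The libraries held 38751201 to 47335258 estimated gene counts in Ctrl, 41807043 to 49527655 in SCNx, and 17425207 and 18059227 in KO. Markers of ChP epithelium (8 genes) summed to at least 105096 CPM (counts scaled to a common library size) in every Ctrl and SCNx library, and to 85445 and 81179 CPM in KO. In a pair of libraries brain transcripts stood out. Astrocyte markers (6 genes) summed to 866 CPM in Ctrl CT4 and 1045 CPM in SCNx CT32, against group medians of 176 and 167, and neuron and cerebellum markers (8 genes) to 242 and 314 CPM against 15.9 and 14.9. In Ctrl CT16 and SCNx CT0 the 10 hepatocyte markers summed to 2621 and 11715 CPM, against medians of 3.91 and 5.79. For the members, values without these 4 libraries follow beside several results that moved when they were left out. For the other gene lists such values are not given, apart from the median peak of the ER chaperones. More cells of a type and more RNA per cell cannot be told apart in such bulk tissue.

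Of the 10 genes, 9 reached a mean of 1 CPM in both groups and entered the tests over 13697 genes. Chac1, an enzyme that degrades glutathione, did not. The SCN lesion left no detectable change in the mean level of any tested member. With edgeR's quasi-likelihood test and Benjamini-Hochberg adjustment, used for all adjusted p-values below, 0 of 9 members passed 0.05, and 0 had an unadjusted p under 0.05. Of all genes tested, 0% passed, 1283 had an unadjusted p under 0.05 and the smallest adjusted p was 0.266. The log2 differences, SCNx minus Ctrl, ran from -0.17 in Nupr1 to 0.23 in Asns with a median of -0.02, while the median over all genes was 0.01. Without the 4 libraries these differences were 0.03 for Nupr1, -0.02 for Asns and -0.27 for Trib3 (-0.13 with them, adjusted p = 0.432 without them).

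Atf4 (ENSMUSG00000042406), the factor itself, varied least of these genes between the Ctrl mice, with a coefficient of variation of 7.34%. Its lowest level was 57.2 CPM at CT32, its median 67.1 and its highest 74.7 at CT24, and in SCNx the levels ran from 59.8 at CT8 over a median of 69.3 to 74.7 at CT0. The groups overlapped over nearly their whole ranges. The difference was 0.01 ± 0.04 (log2, SE, n = 12 and 12, adjusted p = 0.969). A 24 h curve fitted to Ctrl had an amplitude of 0.10 ± 0.04 (log2, from the mean to the peak of the curve, SE) and a peak at 20.5 h of the circadian day (adjusted p = 0.136). In SCNx the amplitude was again 0.10, with a peak at 20.7 h (adjusted p = 0.284), and it was 0.07 without the 4 libraries.

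Ddit3 (ENSMUSG00000025408) codes for CHOP, a transcription factor that acts with ATF4 and promotes cell death under lasting stress. In Ctrl its level was lowest at CT4 on the first day (6.98 CPM) and at CT28 on the next (6.60 CPM), and highest at CT20 (10.8 CPM) and CT44 (10.2 CPM), with a median of 8.81. The same hours of both days were thus low and high. In SCNx the highest levels were 12.2 CPM at CT40 and 11.1 at CT24, the lowest 6.60 at CT16 and the median 8.40. The fitted Ctrl curve had an amplitude of 0.27 ± 0.06, a peak-to-trough fold of 1.46 and a peak at 17.2 h, and missed the threshold (p = 0.0207, adjusted p = 0.118). It passed in a fit of the Ctrl libraries alone (adjusted p = 0.0173) and without SCNx CT40 (adjusted p = 0.0445). In SCNx the amplitude was 0.13 ± 0.11 (adjusted p = 0.617), and the difference of the rhythms had an adjusted p of 0.554. Counts of Ddit3 were fractional in 22 of 24 libraries, as were those of its second row, which can arise where Salmon divides reads between similar transcripts.

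Trib3 (ENSMUSG00000032715), a pseudokinase that restrains ATF4 and AKT signalling, lay between 1.27 and 1.91 CPM in Ctrl (median 1.43). In SCNx it lay between 0.850 and 2.45 CPM (median 1.23), and the highest value stood in SCNx CT0, the library richest in hepatocyte transcripts. Its fitted amplitude was 0.09 ± 0.08 in Ctrl (adjusted p = 0.891) and 0.32 ± 0.15 in SCNx (adjusted p = 0.334), and the latter was 0.16 without the 4 libraries. Chac1 (ENSMUSG00000027313) had 12 to 36 counts per Ctrl library. Its highest Ctrl levels, 0.907 and 0.856 CPM, stood at CT20 and CT44, the same hour of both days, against a median of 0.446 and a lowest of 0.263 at CT28. In SCNx the same hours gave 0.685 and 0.788 CPM, the median was 0.471, and the highest, 1.24 CPM, stood in SCNx CT32, which was rich in brain transcripts. With no minimum level, over 40287 genes, Chac1 had a fitted Ctrl amplitude of 0.47 with a peak at 19.2 h and did not pass (p = 0.141, adjusted p = 0.713).

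None of the feedback and stress-adaptation targets Ppp1r15a, Sesn2 and Nupr1 had a called rhythm, so their fitted peak times are loosely fixed. Ppp1r15a (ENSMUSG00000040435), which codes for GADD34, the subunit that brings a phosphatase to eIF2α and restores translation, was highest in Ctrl at CT28 (52.2 CPM) and CT4 (51.3 CPM) and lowest at CT16 (34.2 CPM), with a median of 45.6. Its hours were opposite to those of Ddit3. The amplitude was 0.18 ± 0.05 with a peak at 5.87 h (adjusted p = 0.176), and 0.02 in SCNx (adjusted p = 0.980), where levels ran from 34.9 to 51.5 CPM. Ctrl CT16, the lowest library, was the one with hepatocyte transcripts, and without the 4 libraries the Ctrl amplitude was 0.13. Sesn2 (ENSMUSG00000028893), a stress-induced inhibitor of mTORC1, stayed between 10.9 and 13.8 CPM in Ctrl and 10.1 and 13.7 in SCNx, with medians of 12.6 and 12.6 and a Ctrl amplitude of 0.11 ± 0.04 at 20.1 h (adjusted p = 0.379). Nupr1 (ENSMUSG00000030717), a small chromatin protein induced by stress, had a Ctrl median of 2.69 CPM, a lowest level of 1.58 at CT0 and a highest of 5.82 in the brain-rich Ctrl CT4, with 3.29 as the next. In SCNx it lay between 1.88 and 3.17 CPM (median 2.51), and its lowest value stood in the brain-rich SCNx CT32. Its amplitude was 0.28 ± 0.20 in Ctrl (adjusted p = 0.505) and 0.21 ± 0.10 in SCNx (adjusted p = 0.696), and 0.24 and 0.19 without the 4 libraries.

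Of the 3 enzymes of amino acid synthesis, Phgdh (ENSMUSG00000053398) catalyses the first step of serine synthesis. In Ctrl it was lowest at CT44 (45.4 CPM), highest at CT32 (71.9 CPM) and CT36 (68.4 CPM), and had a median of 55.6. On the first day it was lowest at CT0 and highest at CT12. At CT24, the hour of its first-day low, it stood at 59.6 CPM, above the median. In SCNx all 12 values lay between 51.3 and 64.5 CPM (median 58.1), inside the Ctrl range. Phgdh was the 1 member whose Ctrl rhythm passed the test, with an amplitude of 0.22 ± 0.05, a peak-to-trough fold of 1.35 and a peak at 9.56 h (adjusted p = 0.0127). It held without the 4 libraries (amplitude 0.22, adjusted p = 0.00747), and missed the threshold without Ctrl CT32 (0.0513) or Ctrl CT44 (0.0536). In SCNx the amplitude was 0.04 ± 0.04 (adjusted p = 0.809), but the difference of the rhythms did not pass (adjusted p = 0.341). Phgdh counts were fractional in all 24 libraries, so that its level carries the uncertainty of divided reads.

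Psat1 (ENSMUSG00000024640), the next enzyme of the same pathway, showed no such course. Its Ctrl levels ran from 15.2 CPM at CT16 over a median of 16.9 to 22.6 at CT4, and its SCNx levels from 15.3 over 16.5 to 25.9 at CT32. Asns (ENSMUSG00000029752), which makes asparagine, ran from 1.64 CPM over a median of 2.31 to 6.77 at CT4 in Ctrl, and from 1.79 over 2.29 to 12.1 at CT32 in SCNx. Both genes were thus highest in the same 2 libraries, those in which the astrocyte and neuron markers stood out. Outside them Asns reached at most 2.92 CPM in Ctrl and 3.14 in SCNx, and Psat1 18.2 CPM in each group. The fitted amplitude of Asns fell from 0.55 to 0.32 in Ctrl (adjusted p = 0.366 and 0.0620) and from 0.63 to 0.17 in SCNx when the 4 libraries were left out, and that of Psat1 from 0.11 to 0.02 and from 0.15 to 0.03. Without SCNx CT32 alone, the Ctrl rhythm of Asns passed (amplitude 0.55, adjusted p = 0.0484).

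**Figure D1:**
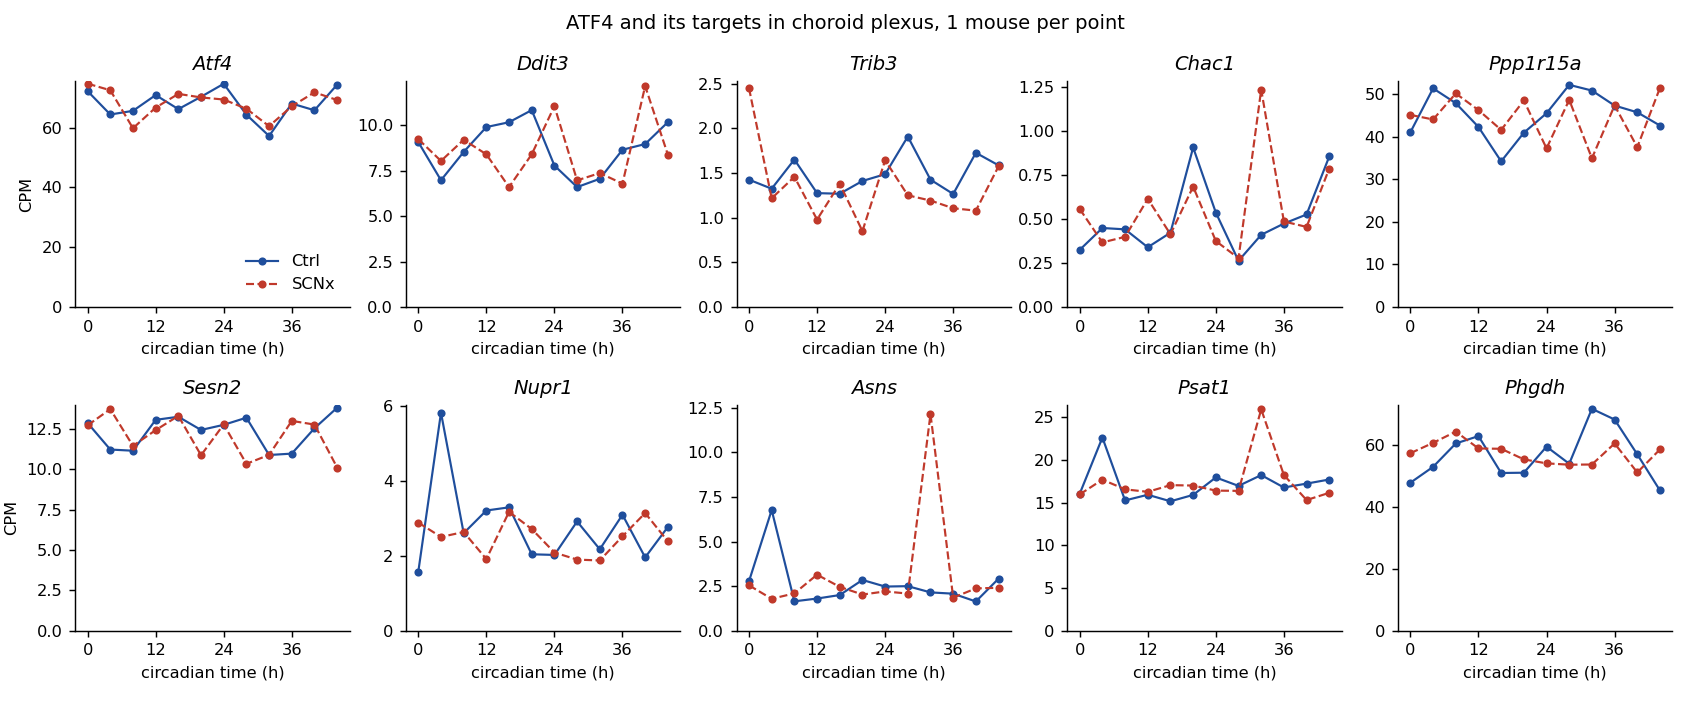
Level in CPM (vertical axes, from 0) of the 10 genes against circadian time in h (horizontal axes), 1 point per mouse, Ctrl as solid blue and SCNx as dashed red lines. Asns and Psat1 peak at Ctrl CT4 and SCNx CT32, Nupr1 at Ctrl CT4 (5.82 CPM), and Ddit3 in Ctrl is highest at CT20 and CT44 (10.8 and 10.2 CPM).

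**Figure D2:**
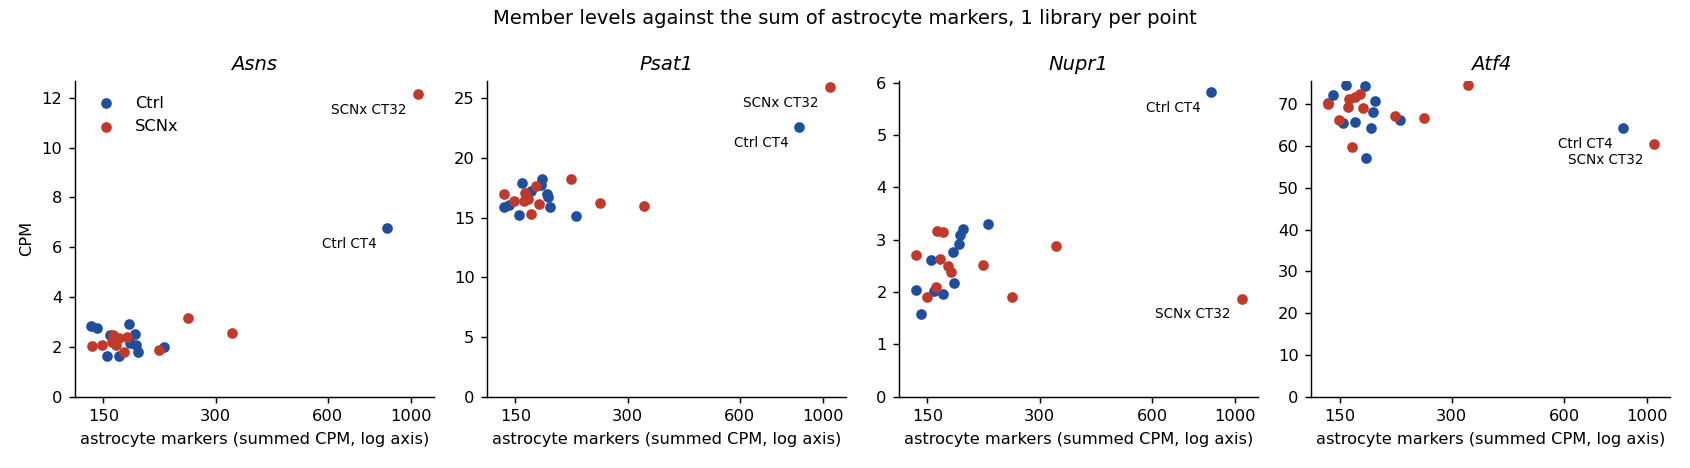
Level in CPM of Asns, Psat1, Nupr1 and Atf4 (vertical axes, from 0) against the summed CPM of 6 astrocyte markers (horizontal log axes), 1 point per library, Ctrl in blue and SCNx in red. Ctrl CT4 and SCNx CT32 lie far to the right at 866 and 1045 CPM and are the highest for Asns and Psat1, whereas Atf4 in them, 64.4 and 60.5 CPM, lies below its group medians.

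Counted together, 1 of 9 members had a called 24 h rhythm in Ctrl, where 10.7% of all tested genes did. At an unadjusted p under 0.05 stood 4 members (Atf4, Ddit3, Phgdh and Ppp1r15a) and 3398 of the 13697 tested genes. The median amplitude was 0.18 over the members and 0.11 over all genes. In SCNx 0 of 9 members and 0% of all genes passed, while 2 members and 2032 genes had an unadjusted p under 0.05 and the smallest adjusted p of any gene was 0.137. Of all genes, 2.12% had a called difference between the rhythms of Ctrl and SCNx, and 0 of 9 members were among them. An unadjusted p under 0.05 for this difference was found for 0 members and 2067 genes. Of the 15 ER chaperones, 13 had a called rhythm in Ctrl and 7 a called difference, with median amplitudes of 0.50 in Ctrl and 0.21 in SCNx. These counts are a description, as the list was chosen with earlier results of these data known. The paper reports Hspa5, Hsp90b1, Calr and Sdf2l1 as rhythmic in the same Ctrl mice. For example, Pdia6, a disulfide isomerase, fell to 184 CPM at CT12 and reached 442 CPM at CT20 in Ctrl.

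The peak times of the members were scattered. Fitted peaks of the ER chaperones in Ctrl lay between 15.8 and 21.7 h with a median of 20.8 h, and the mean vector of these times had a length of 0.94, where 1 means a single shared hour and 0 none. Over the 9 members that length was 0.30. Atf4 peaked 0.31 h and Sesn2 0.64 h before the median chaperone and Ddit3 3.57 h before it, while Asns and Trib3 came after it, by up to 5.18 h. Psat1 (6.59 h), Ppp1r15a (9.09 h), Nupr1 (10.8 h) and Phgdh (11.2 h) lay more than 6 h away. Without the 4 libraries the chaperone median was 20.9 h, Psat1 and Asns came 2.42 and 2.34 h after it, and Ppp1r15a (9.90 h), Nupr1 (9.94 h) and Phgdh (11.3 h) were those more than 6 h away. Peak times of curves with small amplitudes are loosely fixed, and only that of Phgdh belongs to a called rhythm.

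**Figure D3:**
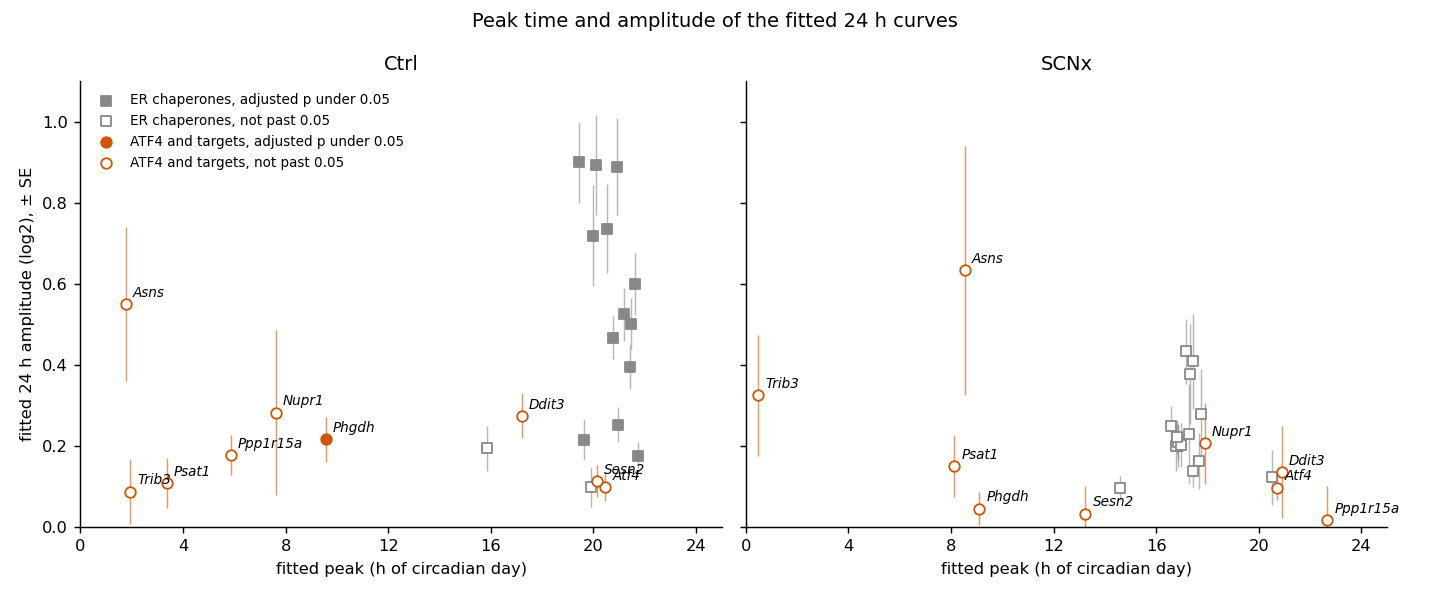
Fitted amplitude (log2, vertical axis, bars ± SE) against fitted peak time (h, horizontal axis) in Ctrl (left) and SCNx (right), with 9 members as orange circles and 15 ER chaperones as grey squares, filled where the adjusted p was under 0.05. In Ctrl the chaperones gather between 15.8 and 21.7 h, Phgdh is the filled circle at 9.56 h, and no symbol is filled in SCNx.

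To ask directly whether the members moved with the chaperones, each gene was fitted against an ER chaperone score, the mean log2 CPM of the 15 chaperones in a library less its mean over the 24 libraries. The score ran from -0.58 at CT12 to 0.50 at CT44 in Ctrl, and from -0.39 to 0.35 in SCNx. A slope is the log2 change of a gene per unit of the score. In Ctrl 1 of 9 members had a called slope, and 7.12% of all genes did. That gene was Phgdh, and its slope was negative, -0.37 ± 0.09 (adjusted p = 0.0152). Phgdh was thus lower in mice with more chaperone RNA. Over the 12 Ctrl mice its Pearson r with the score was -0.72 (permutation p = 0.00885, adjusted 0.0821) and its Spearman rho -0.77 (permutation p = 0.00464, adjusted 0.0642), with adjustment over the 13697 genes, and r was -0.72 again without the 2 libraries farthest from the median score. The slope was -0.38 without the 4 libraries (adjusted p = 0.0127), and missed the threshold without Ctrl CT36 (0.0510), without Ctrl CT44 (0.0760) or with no minimum level (0.0937).

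The 8 other tested members had Ctrl slopes that missed the threshold, between -0.46 in Nupr1 and 0.23 in Ddit3. The median over the 9 was 0.09 (all genes -0.01). Chac1, fitted with no minimum level, had a steeper Ctrl slope of 0.82 that did not pass (p = 0.0579, adjusted p = 0.432). Its SCNx slope was -0.34 (p = 0.652). Without the 4 libraries the Ctrl slope of Asns moved from 0.14 to 0.50 (adjusted p = 0.112), that of Ppp1r15a from -0.22 to -0.13 (adjusted p = 0.448), that of Trib3 from 0.09 to 0.14 (adjusted p = 0.714) and that of Psat1 from -0.02 to 0.07 (adjusted p = 0.550). The slope of Atf4 was 0.11 ± 0.07 (adjusted p = 0.434), with r = 0.40 (permutation p = 0.204) and rho = 0.37 (permutation p = 0.238), and r = 0.60 without the 2 farthest libraries. Ddit3 had a slope of 0.23 ± 0.19 (adjusted p = 0.535), with r = 0.39 (permutation p = 0.203) and rho = 0.51 (permutation p = 0.0932), and r = 0.71 without the 2 farthest libraries. Sesn2 had a slope of 0.18 ± 0.10 (adjusted p = 0.329). Its r with the score was 0.59 (permutation p = 0.0450, adjusted 0.193), with rho = 0.51 (permutation p = 0.0927, adjusted 0.285) and r = 0.80 without the 2 farthest libraries. Without the 4 libraries rich in brain or liver transcripts r was 0.56 for Sesn2 and 0.62 for Asns, whose r over all 12 was 0.18. Ppp1r15a had a slope of -0.22 ± 0.13 (adjusted p = 0.357) and passed only where the score was built from cytosolic heat shock chaperones, with a slope of -0.54 (adjusted p = 0.0434).

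In SCNx 0 of 9 members had a called slope, against 0.19% of all genes. Slopes of the members ran from -1.45 ± 1.07 in Asns to 0.51 ± 0.53 in Nupr1, with a median of -0.06 (all genes -0.02). An unadjusted p under 0.05 was found for 0 members and 846 genes. Without the 4 libraries the slope was 0.31 for Asns, -0.12 for Trib3 (-0.30 with them), -0.09 for Psat1 (-0.33 with them) and -0.19 for Ppp1r15a (-0.06 with them), each with an adjusted p of 0.9998. Atf4 had a slope of 0.23 ± 0.14 (adjusted p = 0.785), with r = 0.52 (permutation p = 0.0808, adjusted 0.999) and rho = 0.29 (permutation p = 0.367). For Ddit3 r was 0.04 (permutation p = 0.908) and rho -0.13 (permutation p = 0.700), and r was -0.62 without the 2 farthest libraries. The difference of the slopes between SCNx and Ctrl was called for 0 of 9 members and 0% of all genes, with 0 members and 450 genes at an unadjusted p under 0.05. By construction the chaperones follow their own score, with 13 and 12 of 15 slopes called in Ctrl and SCNx, which is a description. Xbp1, a transcription factor of the unfolded protein response that is not in the score, had called slopes of 1.03 ± 0.11 in Ctrl (adjusted p = 1.80e-06) and 1.02 ± 0.20 in SCNx (adjusted p = 0.0296). It was named from a list of 6 sensors and factors of that response for its small p for a Ctrl rhythm. Of these 6 genes, 1 had a called slope in Ctrl and 2 in SCNx, with median slopes of 0.09 and 0.14.

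A shared hour of the day can give 2 genes a common slope, so the score was also fitted together with a 24 h curve per group, which leaves the departures of single mice from that curve. Here 0 of 9 members were called in Ctrl (all genes 0.0584%) and 0 of 9 in SCNx (all genes 0.0292%). At an unadjusted p under 0.05 stood 1 member and 506 genes in Ctrl, and 0 members and 791 genes in SCNx. The lowest unadjusted p of a member belonged to Atf4 in Ctrl, with a negative slope of -0.48 ± 0.13 (p = 0.00212, adjusted p = 0.853), opposite in sign to its slope without the curve. In SCNx the same slope was 0.21 ± 0.15 (adjusted p = 0.890). For Phgdh the Ctrl slope beyond the curve was -0.03 ± 0.25 (adjusted p = 0.9998), and 0.11 without the 4 libraries.

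**Figure D4:**
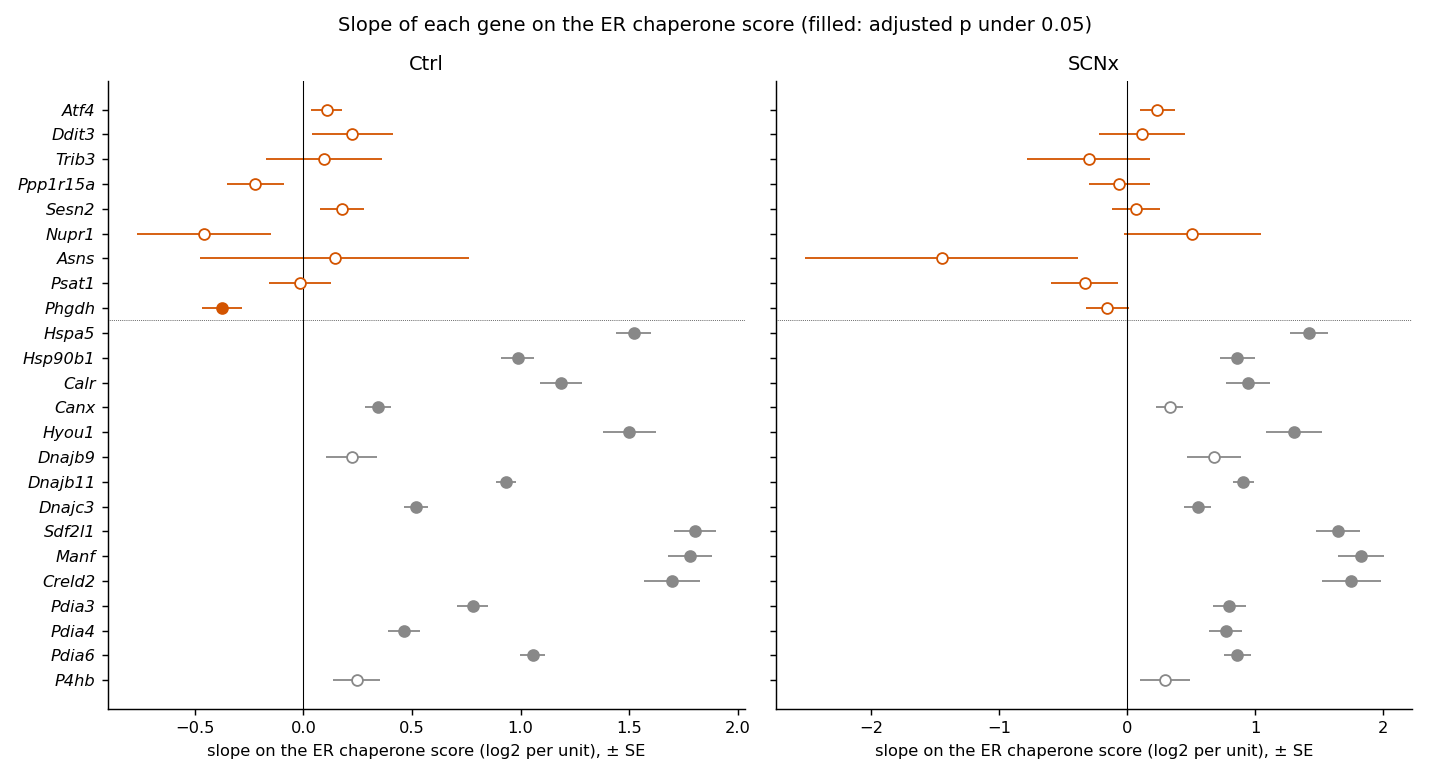
Slope on the ER chaperone score (log2 per unit, horizontal axes, bars ± SE) of 9 members (orange, above the dotted line) and of the 15 chaperones that make up the score (grey) in Ctrl and SCNx, filled where the adjusted p was under 0.05. Members lie on both sides of 0 and Phgdh in Ctrl (-0.37) is the 1 filled orange point, while the chaperone slopes are all above 0; the horizontal scales of the panels differ.

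With all libraries kept, the members also did not share a course among themselves. Over the 36 pairs of members the median Pearson r of log2 CPM was -0.14 in Ctrl (15 pairs above 0) and -0.03 in SCNx (16 above 0). Over the 105 pairs of chaperones it was 0.89 and 0.82, with 105 and 103 pairs above 0, and over the 135 pairs of a member and a chaperone 0.07 and -0.01. In Ctrl the member pairs ranged from -0.83 for Ddit3 with Ppp1r15a to 0.78 for Asns with Psat1, the genes highest in the brain-rich libraries. These values are descriptions over 12 libraries that share their time points. The 4 libraries rich in brain or liver transcripts are among those used, and pair values without them were not taken. The 3 tested genes whose log2 CPM in Ctrl was most like that of Atf4 were Ints13 (r = 0.94), Zfp35 (0.92) and Ssrp1 (0.92), with r of 0.28, 0.40 and -0.23 in SCNx. For Ddit3 they were Snrnp48 (0.93), Mblac2 (0.91) and Dqx1 (0.90), with r of 0.22, -0.01 and 0.51 in SCNx. As the highest of 13697 values over 12 mice, the Ctrl values are no test.

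Around the members, the wider ATF4 pathway was read from further lists of known genes, with the Ctrl background of 10.7% for rhythms and 7.12% for slopes. At an unadjusted p under 0.05 this background was 3398 genes for rhythms and 2936 for slopes, of 13697 tested. None of the 6 kinases and partners of eIF2α had a called rhythm (2 at an unadjusted p under 0.05) or slope (2 at an unadjusted p under 0.05) in Ctrl. Ppp1r15b, the constitutive partner of Ppp1r15a in the phosphatase, had an amplitude of 0.12 ± 0.04 (adjusted p = 0.102). Among 3 tested bZIP partners of ATF4, Cebpg, which dimerises with it, was called as rhythmic with an amplitude of 0.21 ± 0.04 and a peak at 18.5 h (adjusted p = 0.0119). Of 13 genes for tRNA charging and export, 1 was called as rhythmic, the leucyl synthetase Lars (0.24 ± 0.02, peak at 7.24 h, adjusted p = 3.29e-04). Slopes were called for 3 of the 13, negative for Lars (-0.41 ± 0.08) and Mars1 (-0.22 ± 0.06) and positive for Wars (0.22 ± 0.06).

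Amino acid transporters had 3 called rhythms among 8 tested genes. Slc3a2, the heavy chain shared by several transporters, was called with an amplitude of 0.34 ± 0.06 and a peak at 7.78 h (adjusted p = 0.00319), its light chain Slc7a5 with 0.53 ± 0.17 at 12.3 h (adjusted p = 0.0144) and the arginine transporter Slc7a1 with 0.22 ± 0.04 at 2.76 h (adjusted p = 0.00995). In Ctrl Slc3a2 was highest at CT8 and CT32 (160 and 158 CPM) and lowest at CT20, CT40 and CT44 (100, 98.1 and 88.2 CPM). The slopes of Slc3a2 (-0.66 ± 0.11, adjusted p = 5.95e-04) and Slc7a5 (-0.82 ± 0.25, adjusted p = 0.0460) were negative, so these transporters, like Phgdh, were low when chaperone RNA was high. Over the 7 tested serine, one-carbon and proline enzymes apart from the members, 1 was rhythmic in Ctrl, Aldh18a1, which starts proline synthesis (0.18 ± 0.03, peak at 1.74 h, adjusted p = 0.00645), and 0 had a called slope (0 at an unadjusted p under 0.05).

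Of 7 other tested targets of ATF4, 2 were rhythmic in Ctrl and 2 had a called slope. Gdf15, a stress hormone, stood nearest to the chaperones, with an amplitude of 0.70 ± 0.11, a peak at 21.4 h (adjusted p = 0.00431) and a slope of 1.24 ± 0.29 (adjusted p = 0.0101). Its Ctrl levels ran from 1.18 CPM at CT36 over a median of 2.03 to 4.08 at CT0. Jdp2, a bZIP repressor, peaked at 11.9 h (0.37 ± 0.05, adjusted p = 0.0186), and Sqstm1, an autophagy adaptor named for its called slope after its values were seen, had a slope of -0.22 ± 0.07 (adjusted p = 0.0468). In SCNx 0 genes of these lists had a called rhythm, as for all genes. At an unadjusted p under 0.05 stood 1 bZIP partner, 4 transporters, 2 enzymes and 3 other targets, and 2032 of all 13697 genes. The called SCNx slopes lay outside these lists too, with 1 kinase or partner, 3 transporters and 1 other target at an unadjusted p under 0.05 (846 of all genes).

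The KO libraries were described only, with exact Poisson intervals (95%) that cover counting error. As a check of the label, Arntl, the gene of BMAL1, had 10.6 CPM at ZT7 and 9.36 CPM at ZT18, inside the Ctrl range of 2.01 to 39.4 CPM. These counts cover the whole gene and do not show the deleted part. Leaving aside Trib3 and Chac1, whose counts were few, Nupr1 differed most, from 3.39 CPM (2.58 to 4.37) at ZT7 to 8.08 (6.83 to 9.51) at ZT18, a fold of 2.39 (1.75 to 3.29), and the ZT18 value lay above every Ctrl and SCNx library. Asns had 3.67 and 6.15 CPM (fold 1.67, 1.22 to 2.31), Sesn2 6.48 and 10.2 (fold 1.57, 1.24 to 2.00) and Ppp1r15a 37.1 and 45.4 (fold 1.22, 1.102 to 1.36). For these 4 genes the ZT7 and ZT18 intervals did not overlap, and the same held for 8 of the 15 ER chaperones. The share over all genes was not taken, and the intervals leave out the spread between mice.

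Atf4 had 73.1 and 81.1 CPM (fold 1.11, 1.03 to 1.196), the latter above every Ctrl and SCNx library. Ddit3 had 14.1 and 12.1 CPM (fold 0.855, 0.709 to 1.03), both values above the highest Ctrl library, 10.8 CPM. Phgdh had 34.7 and 34.5 CPM (fold 0.995, 0.888 to 1.11), both below the lowest Ctrl library, 45.4 CPM, and Psat1 had 13.8 and 14.6 CPM, below every Ctrl and SCNx library. Trib3 had 11 and 21 counts and Chac1 12 and 4, with wide intervals that overlapped. Mitochondrial genes took 25.1% and 21.8% of the KO counts, against 3.92 to 8.77% in Ctrl and SCNx, which lowers the KO levels of all other genes. With these genes left out of every total, a choice made after seeing the data, Psat1 had 18.5 and 18.7 CPM, inside the Ctrl range of 15.6 to 24.4. Atf4 then had 97.6 and 103.7 CPM, both above the highest Ctrl library, 79.7 CPM. Phgdh stayed below the lowest Ctrl library (46.3 and 44.1 against 47.2 CPM), and Ddit3 (18.9 and 15.4 against 11.7) and Nupr1 at ZT18 (10.3 against 6.29) above the highest. Of the 8 members apart from Trib3 and Chac1, 6 were higher at ZT18, with a median log2 ratio of 0.22, where 8671 of 13584 genes were higher and the median was 0.13, and 5 of 15 chaperones were higher with a median of -0.09. In the same pair of libraries neuron and cerebellum markers summed to 193 and 299 CPM, astrocyte markers to 753 and 893 CPM and 9 immediate early genes to 57.4 and 96.8 CPM. Their part in the differences of the members was not tested.

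**Figure D5:**
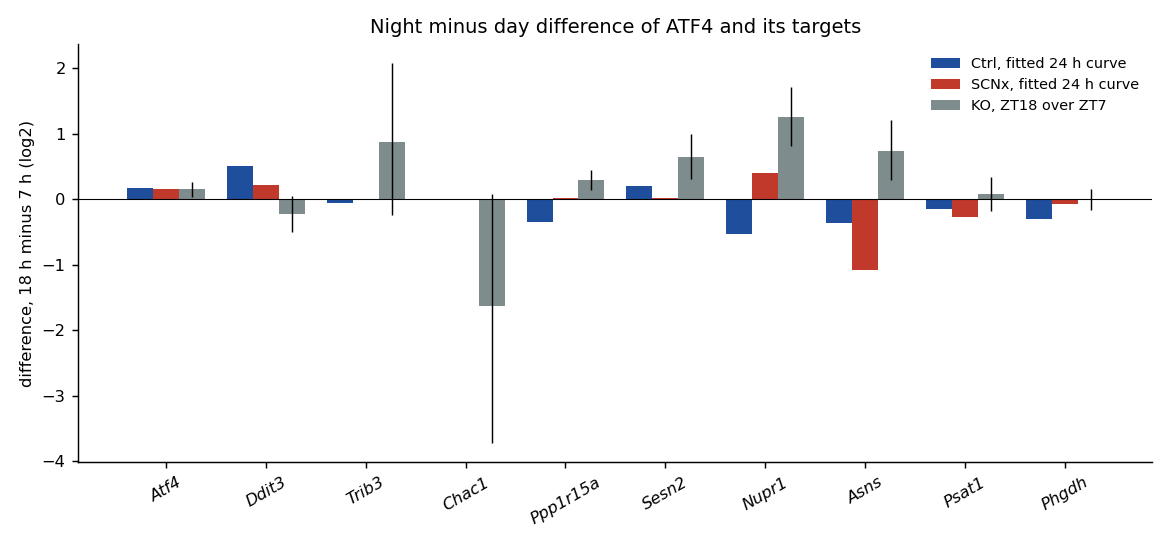
Log2 difference between 18 h and 7 h (vertical axis) for each gene, from the fitted 24 h curves of Ctrl (blue) and SCNx (red) and as the ratio of the 2 KO libraries (grey, bars with the 95% counting interval); Chac1 has no fitted curve. Nupr1 in KO has the highest difference at 1.26, where its Ctrl curve gave -0.54 and its SCNx curve 0.40. Without the 4 libraries rich in brain or liver transcripts these 2 curves gave -0.19 and 0.31. The curves of Asns, at -0.36 in Ctrl and -1.08 in SCNx, changed sign without the same libraries, to 0.21 and 0.18. Ddit3 is the highest in Ctrl at 0.51. None of the curves of Nupr1, Asns and Ddit3 was a called rhythm, whereas the Ctrl curve of Phgdh was.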

How the data were processed

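RNA of 26 mice was sequenced with single-end reads. The authors ran nf-core/rnaseq with STAR and Salmon 1.9.0 on GRCm39 with Ensembl 104 and deposited estimated counts per gene, not normalized. The submitters' processing notes also list SAMtools 1.16.1, cutadapt 3.4 and StringTie 2.2.1. Whether Ctrl and SCNx were counted by strand is not given in the sources used here.

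Estimated counts were rounded and scaled by TMM (0.955 to 1.08) in edgeR 4.0.16 under R 4.3.3, which gives CPM with these library sizes. KO values are CPM of the library total, also given with mitochondrial genes left out of the totals of all groups (not TMM-scaled). Tests covered the 13697 of 55416 genes that averaged 1 CPM or more in both groups, by quasi-likelihood F tests, adjusted over all of them. One model held a mean per group, another a 24 h cosine and sine per group, another the ER chaperone score per group and the last the curve and the score. SE of amplitudes come from the spread of log2 CPM (prior count 1) around the curve within 1 group, whereas the F tests shared 1 estimate of the spread between the groups. Correlations used 100000 permutations. Alternatives were limma-trend (limma 3.58.1), DESeq2 1.42.0, its size factors, other filters and scores, a trend over days, separate fits, circadian time as a block and leaving out libraries.

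The named genes are the members, up to 3 per list with the smallest p for a Ctrl rhythm, and the 3 most like Atf4 and Ddit3; others carry a remark. The members and lists were chosen with earlier results of these data known. The labels give no batch for Ctrl and SCNx. Figures used matplotlib 3.10.9.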

Additional observations from a re-analysis of the deposited data

How the results depend on the processing

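The number of members with a called Ctrl rhythm was 1 as reported, 2 in a separate fit per group (Phgdh and Ddit3) and between 0 and 2 when each of the 24 mice was left out in turn: 0 without Ctrl CT32 or Ctrl CT44, and 2 without SCNx CT32 (Asns added) or SCNx CT40 (Ddit3 added). The number with a called Ctrl slope on the ER chaperone score was 1 as reported, 0 with no filter on low counts, 2 with the cytosolic heat shock score (Phgdh and Ppp1r15a) and between 0 and 1 in the leave-one-out fits, with 0 without Ctrl CT36 or Ctrl CT44. For every other comparison the count of called members was 0 under each of the 24 leave-one-out fits and each of the 8 to 10 other settings, circadian time as a block included. Without SCNx CT32 the Ctrl amplitude of Asns was 0.55, and without SCNx CT40 that of Ddit3 was 0.27, both as in the main fit. The causes of these changes in the calls were not tested. Depth limits Chac1, Trib3, Asns and Nupr1 most, which had as few as 12, 36, 71 and 63 counts in a library. Only a 24 h cosine shape was tested.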
